A study of Homo sapiens with 6 samples.

Results

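The SLC25 family of carriers was examined in H1048 cells, an established small cell lung cancer line, as the rows of the full gene table whose symbol is SLC25A followed by a number. This rule took 46 of the 16953 genes listed and reads the symbol alone. The study treated H1048 cells, labelled wt, with isovalerylspiramycin I (ISP-I, a macrolide) at 10 µM or with its solvent DMSO at no more than 0.02% for 48 h, with 3 samples of each kind described as biological replicates. All 6 samples were of this 1 cell line. The processed tables compare the set of libraries D to F with the set A to C, and no label used here ties a letter to a treatment. "Higher" and "lower" therefore mean higher or lower in libraries D to F than in A to C, and which set received ISP-I is not stated in the sources used here.

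Carriers of this family are built from repeated pairs of membrane helices and sit mostly in the inner mitochondrial membrane, which is otherwise closed to charged metabolites. They exchange ADP for ATP, bring in phosphate, and pass citrate, malate, amino acids, nucleotides, cofactors, acylcarnitines, iron and glutathione between the cytosol and the matrix. The carriers are made in the cytosol and inserted by the TIM22 translocase of the inner membrane.

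Every fold change, p-value and adjusted p below is the authors' own, from their deposited table. It gives no standard error, and because the columns of values per library could not be tied to samples, no level, depth or spread between replicates is given for any gene. A gene was called when the adjusted p was under 0.05. RNA came from whole cultures, so fewer cells of a type and less RNA per cell cannot be told apart. Of 6 markers of the tuft cell-like subtype, 4 were called lower and 0 higher, POU2F3 among the lower ones (listed at -1.71 on the log2 scale in the authors' deposited table, with an adjusted p of 3.42e-89). Of 5 neuroendocrine markers, 4 in the table and 3 with an adjusted p, 2 were higher and 0 lower. These were the vesicle protein SYP (2.51 on the log2 scale, adjusted p = 1.73e-34) and the transcription factor INSM1 (1.81, adjusted p = 1.09e-16). Of 5 fibroblast markers, all of them in the table, 3 were lower and 0 higher. Of 4 leukocyte markers, 3 in the table, 1 was higher, and of 4 endothelial markers, again 3 in the table, 0 were called. Among all genes with an adjusted p, 29.7% were called higher and 27.9% lower. The part of any change in cell makeup in the values of the carriers was not tested.

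The carriers moved in both directions. In the authors' deposited table, SLC25A23, a calcium-regulated carrier that exchanges ATP-Mg for phosphate, was 7.36-fold lower and its paralogue SLC25A25 was 2.71-fold higher. The carrier of basic amino acids SLC25A29 was 2.26-fold lower and the oxoglutarate/malate carrier SLC25A11 was 1.86-fold lower, whereas SLC25A38, the glycine carrier needed for heme synthesis, was 1.99-fold higher. SLC25A47, a carrier known from liver, had the largest called increase, 12.7-fold.

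Promoter sequences of the members that carry these contrasts are shown first, namely SLC25A23 and SLC25A25, paralogues called in opposite directions, and SLC25A29 and SLC25A47, neighbours on chromosome 14 also called in opposite directions. Each is the 250 bases before a RefSeq start (GRCh38.p14), read 5′ to 3′ on the gene's strand. Capitals mark matches to the motifs searched, on either strand. The windows are chr19:6459793-6460042 (minus strand) for SLC25A23, chr9:128098257-128098506 (plus strand) for 1 of the 3 SLC25A25 starts in the table, chr14:100306445-100306694 (minus strand) for SLC25A29 and chr14:100323089-100323338 (plus strand) for SLC25A47.
SLC25A23: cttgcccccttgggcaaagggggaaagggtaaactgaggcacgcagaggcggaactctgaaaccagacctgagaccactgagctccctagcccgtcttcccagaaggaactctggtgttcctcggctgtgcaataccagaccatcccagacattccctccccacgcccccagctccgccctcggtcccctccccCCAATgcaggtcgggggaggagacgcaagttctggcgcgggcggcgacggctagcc
SLC25A25: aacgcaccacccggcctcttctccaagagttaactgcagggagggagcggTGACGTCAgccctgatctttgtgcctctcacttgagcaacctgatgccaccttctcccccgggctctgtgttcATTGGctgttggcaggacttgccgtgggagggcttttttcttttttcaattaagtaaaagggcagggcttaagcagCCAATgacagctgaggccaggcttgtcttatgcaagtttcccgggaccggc
SLC25A29: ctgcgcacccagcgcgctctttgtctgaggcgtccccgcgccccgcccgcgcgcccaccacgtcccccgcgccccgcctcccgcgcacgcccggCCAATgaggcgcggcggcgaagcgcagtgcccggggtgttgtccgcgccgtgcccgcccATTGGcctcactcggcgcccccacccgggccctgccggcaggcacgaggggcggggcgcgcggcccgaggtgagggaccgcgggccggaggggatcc
SLC25A47: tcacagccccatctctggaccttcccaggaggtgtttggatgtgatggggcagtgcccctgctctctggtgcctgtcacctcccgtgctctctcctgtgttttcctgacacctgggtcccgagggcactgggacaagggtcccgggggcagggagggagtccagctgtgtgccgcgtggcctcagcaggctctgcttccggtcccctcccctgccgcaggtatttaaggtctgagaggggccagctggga

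The SLC25A25 window holds the cAMP response element TGACGTCA, which begins 200 bases before the start, and 2 matches to the CCAAT box. It was chosen among the 3 after the search, because it holds this element, and the other two SLC25A25 windows do not. The SLC25A23 window holds 1 CCAAT box, 56 bases before the start, and the SLC25A29 window holds 2. No searched motif was found in the 250 bases shown for SLC25A47.

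Over the family, 38 of 46 members had at least 1 window in the RefSeq table, 46 windows in all, each searched over 300 bases that run from 250 before to 50 after the start. Since genes can have several windows, a gene was counted once if any of its windows held the motif. TGACGTCA was in windows of 3 of the 38 members, 7.89%, beside 421 of the 12963 genes of the gene table that had a window, 3.25%. It was found in 1 of 8 members called higher that had a window, SLC25A25, in 0 of 13 called lower and in 2 of 16 not called, the pyrimidine nucleotide carriers SLC25A33 and SLC25A36. The E-box CACGTG was found for 21.1% of the members and 11.5% of the genes, and CCAAT for 52.6% and 42.4%. The antioxidant response element TGACNNNGC was found for 23.7% and 18.6%, and the AP-1 site TGANTCA for 5.26% and 7.8%. The amino acid response element TGATGNAA was found for 2.63% and 3.3%, and TATAAA for 5.26% and 10.4%. Counted by window, the background was all 35116 RefSeq windows, not limited to genes of the gene table, so these shares and those by gene have unlike backgrounds. TGACGTCA was in 6.52% of the members' windows and in 1.85% of all windows, CACGTG in 17.4% and 7.26%, CCAAT in 45.7% and 34.6%, and TGACNNNGC in 19.6% and 13.3%. For TGANTCA these shares were 4.35% and 7.71%, for TGATGNAA 2.17% and 3.62%, and for TATAAA 4.35% and 11.5%. Matches to different motifs may overlap. They describe the letters of these windows and show no binding.

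Of the 46 members, 43 carried an adjusted p, and 23 of these were called, 53.5%, beside 57.6% of the 15976 genes of the authors' deposited table that carried one. Thus the family was called about as often as the background. Higher calls numbered 10, 23.3% of the members beside 29.7% of all genes, and lower calls 13, 30.2% beside 27.9%. Calls of at least 2-fold numbered 8, 18.6% of the members beside 24.1% of all genes. The median log2 fold change of the members was 0.00 and that of all genes 0.06. In absolute size the median was 0.47 over the members with an adjusted p and 0.67 over all such genes.

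**Figure D1:**
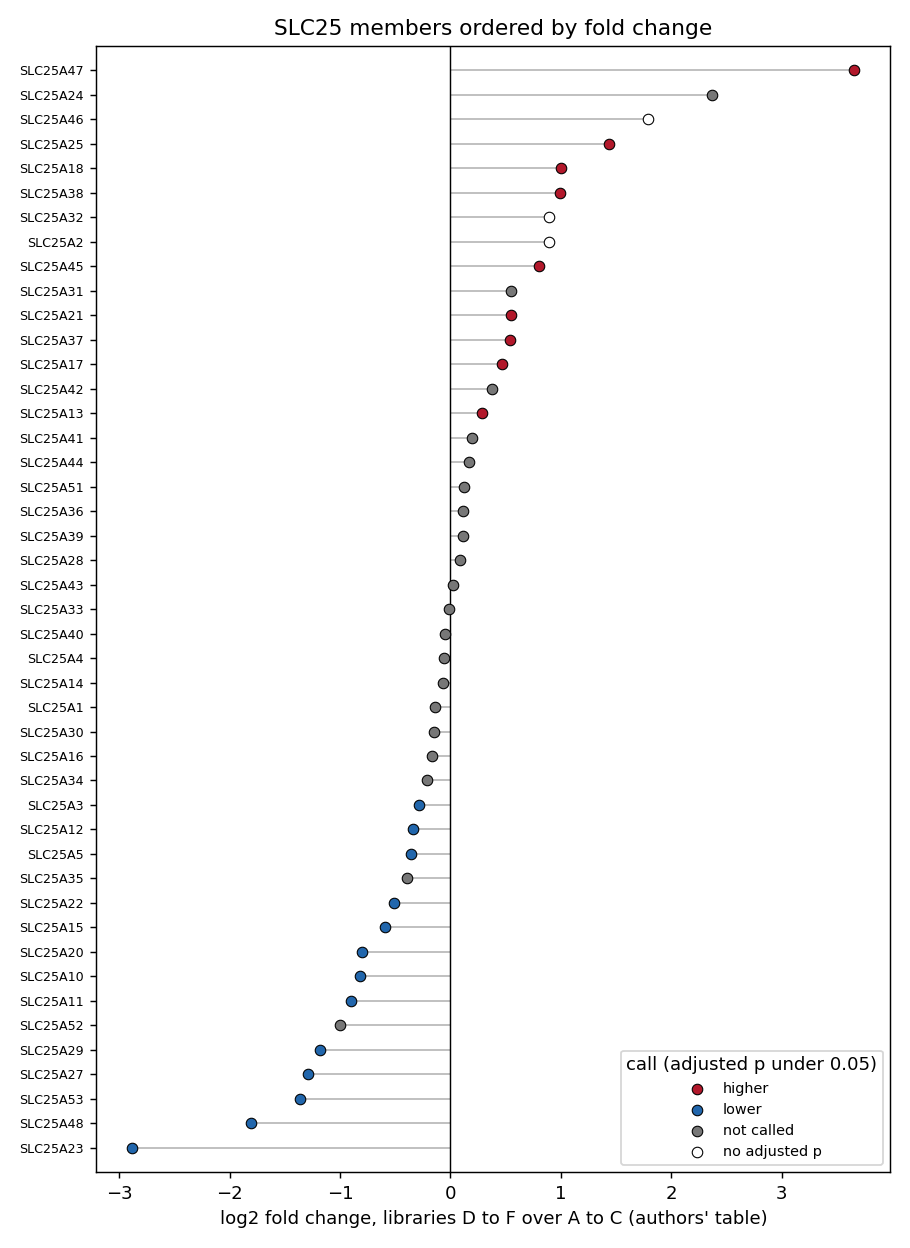
Log2 fold changes (libraries D to F over A to C, horizontal axis) of 45 SLC25 members, ordered, as listed in the authors' deposited table, with each point filled by call at an adjusted p under 0.05. The values run from -2.88 for SLC25A23 to 3.66 for SLC25A47, with 9 of the members drawn called higher, 13 lower, 20 not called and 3 without an adjusted p (open points).

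**Figure D2:**
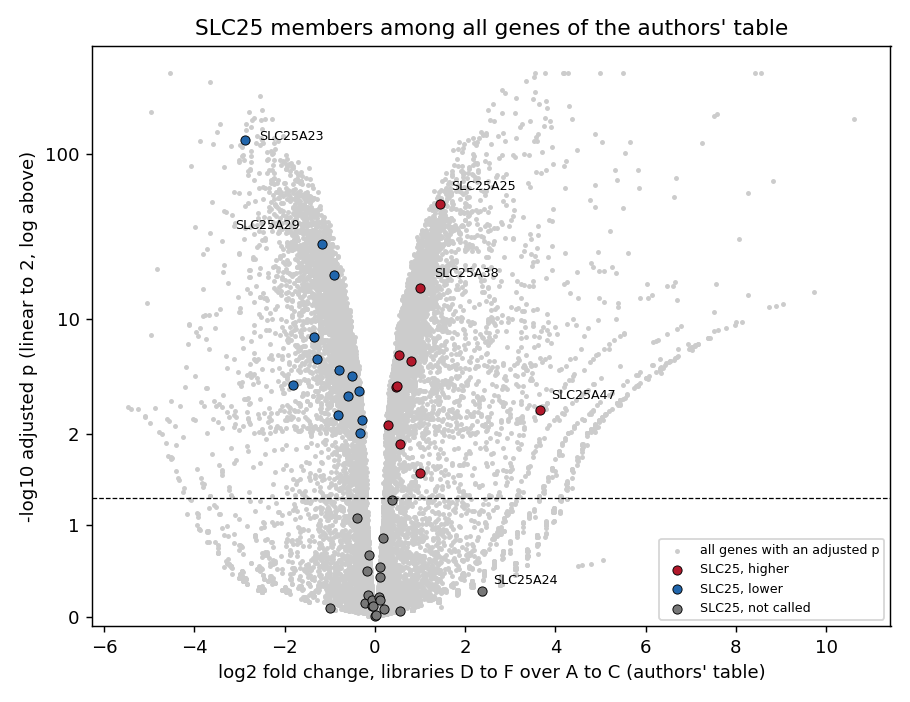
Log2 fold change (horizontal axis) against -log10 of the adjusted p (vertical axis, linear up to 2 and logarithmic above) for the 43 SLC25 members and every gene of the authors' deposited table that carried an adjusted p, where the dashed line marks an adjusted p of 0.05. SLC25A23 and SLC25A25 lie highest among the members, and the 10 genes listed with a p of 0 are drawn along the top.

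The calcium-regulated carriers, which shift adenine nucleotides between the cytosol and the matrix, held the lowest log2 fold change of the family. Their highest, 2.37, belonged to SLC25A24, which was not called, and their highest called value was 1.44. SLC25A23 (chromosome 19, 6436079 to 6465203; coordinates of genes are those of GENCODE 29 on GRCh38) was listed in the authors' deposited table at -2.88 on the log2 scale with an adjusted p of 2.14e-122, and its p was ranked 72 among the 15976 genes with an adjusted p. SLC25A25 (chromosome 9, 128068201 to 128109245) was at 1.44 with an adjusted p of 4.61e-50, rank 393. The remaining pair of this group was not called. SLC25A24 was listed at 2.37 with an adjusted p of 0.524, a fold change that 12 genes share to 3 decimals. SLC25A41, which lacks the calcium-binding domain, was listed at 0.20 with an adjusted p of 0.817. SLC25A41 is the family neighbour nearest to SLC25A23, with 2299 bases between the 2 genes. Exons of genes on the opposite strand covered 16.2% of the exonic bases of SLC25A25 and 0% of those of SLC25A23. The sources do not say whether strand was used in counting. Over the family, exons of other genes on either strand overlapped 20 members. Examples are SLC25A29 (9.3% of exonic bases), SLC25A11 (9.14%), SLC25A22 (10.8%), SLC25A18 (11%), SLC25A48 (10.8%) and SLC25A35 (33.2%).

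The ADP/ATP exchangers and the phosphate carrier, which serve ATP synthase directly, had small differences. SLC25A5 (ANT2), the exchanger typical of dividing cells, was 1.29-fold lower (adjusted p = 0.000231 in the authors' deposited table) and the phosphate carrier SLC25A3 was 1.22-fold lower (adjusted p = 0.00385). SLC25A4 (ANT1), known from heart and muscle, was listed at -0.06 (adjusted p = 0.643) and the germ-line exchanger SLC25A31 at 0.55 (adjusted p = 0.852). Neither of these was called. SLC25A6 is not among the rows of the table and was not analysed here. Opposite-strand exons covered 15.1% of the exonic bases of SLC25A5.

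Carriers of carboxylates and keto acids had 2 lower calls and 1 higher call among 4 members. The shares were 50% lower and 25% higher, beside 27.9% and 29.7% of all genes. SLC25A11, the oxoglutarate/malate carrier of the malate-aspartate shuttle, had a log2 fold change of -0.90 in the authors' deposited table (adjusted p = 5.07e-19). The dicarboxylate carrier SLC25A10 was at -0.82 (adjusted p = 0.00249). Of the 150-base windows of the SLC25A10 coding sequence, the length of a read, 85.4% also occur in a transcript of the overlapping gene AC139530.2. The value of SLC25A10 is therefore to be read with caution, and whether this sharing bears on it was not tested. SLC25A21, which carries oxodicarboxylates, was at 0.55 (adjusted p = 0.0128), with 28.8% of its exonic bases under opposite-strand exons. The citrate carrier SLC25A1, which exports citrate for fatty acid synthesis, was not called (-0.14, adjusted p = 0.211).

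Among the amino acid carriers 7 of the 8 members with an adjusted p were called, 87.5% beside 57.6% of all genes. Of these 3 were higher and 4 lower, 37.5% and 50% of the group beside 29.7% and 27.9%. SLC25A29 (chromosome 14, 100291111 to 100306547) had a log2 fold change of -1.18 and an adjusted p of 3.64e-29 in the authors' deposited table. The ornithine carrier of the urea cycle, SLC25A15, was at -0.59 (adjusted p = 0.00042). SLC25A38 (chromosome 3, 39383324 to 39397351) was at 0.99 (adjusted p = 3.95e-16), and no exon of another gene overlapped its own. Both paralogue pairs with a call for each gene were split. Of the glutamate carriers, SLC25A22 was 1.42-fold lower (adjusted p = 3.46e-05 in the authors' deposited table) and SLC25A18 had a log2 fold change of 1.00 (adjusted p = 0.0269). Of the aspartate/glutamate carriers of the malate-aspartate shuttle, SLC25A12 was 1.27-fold lower (adjusted p = 0.00925) and SLC25A13 was 1.23-fold higher (adjusted p = 0.00527). The carrier of branched-chain amino acids SLC25A44 was not called (0.17, adjusted p = 0.136). SLC25A26, the S-adenosylmethionine carrier, is not among the rows and was not analysed here.

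The carnitine/acylcarnitine carrier SLC25A20, which lets long-chain fatty acids reach β-oxidation, was 1.74-fold lower (-0.80 on the log2 scale in the authors' deposited table, adjusted p = 1.37e-05). Of the iron importers, mitoferrin-1 (SLC25A37) was 1.46-fold higher (adjusted p = 1.05e-06) and mitoferrin-2 (SLC25A28) was not called (0.09, adjusted p = 0.604). The glutathione importer SLC25A39 (0.11, adjusted p = 0.283) and its paralogue SLC25A40 (-0.05, adjusted p = 0.755) were not called either.

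Carriers of nucleotides and cofactors had 2 calls among the 8 members with an adjusted p, 25% beside 57.6% of all genes. Both were higher, beside 29.7% of all genes called higher. They included SLC25A17, a carrier of the peroxisome membrane (0.47 on the log2 scale in the authors' deposited table, adjusted p = 0.000144). The CoA carrier SLC25A42 was just outside the threshold (0.38, adjusted p = 0.053). SLC25A33 (-0.01), SLC25A36 (0.11), SLC25A16 (-0.17) and the NAD carrier SLC25A51 (0.12) were not called, with adjusted p-values from 0.314 for SLC25A16 to 0.975 for SLC25A33. SLC25A52, a near copy of SLC25A51, was listed 2-fold lower (adjusted p = 0.788), a fold change that 16 genes share to 3 decimals. For SLC25A33, 41.2% of the 150-base windows occur in a transcript of AC135977.1. Its value is therefore to be read with caution, and whether this sharing bears on it was not tested.

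Uncoupling protein relatives and carriers of unsettled substrate completed the family. SLC25A27 (uncoupling protein 4, known from brain) was 2.45-fold lower (adjusted p = 2.22e-06 in the authors' deposited table), while SLC25A14 (-0.07, adjusted p = 0.753) and SLC25A30 (-0.15, adjusted p = 0.573) were not called. SLC25A48 was at -1.81 on the log2 scale (adjusted p = 0.000105) and SLC25A53 was 2.57-fold lower (adjusted p = 2.03e-08). SLC25A47 (chromosome 14, 100323337 to 100330378) was at 3.66 on the log2 scale, but with an adjusted p of 0.0016 its p was ranked 6887. SLC25A45 was 1.74-fold higher (adjusted p = 2.87e-06). SLC25A34 (-0.21), SLC25A35 (-0.39) and SLC25A43 (0.02) were not called. SLC25A47 and SLC25A29 lie 16789 bases apart and were called in opposite directions.

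**Figure D3:**
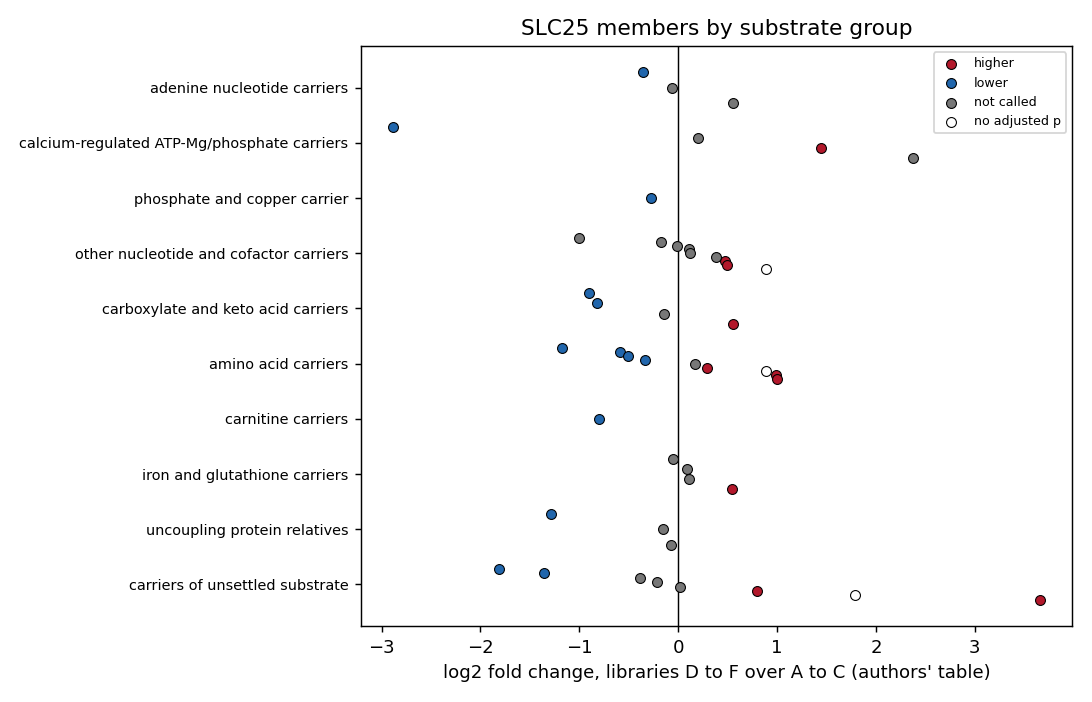
Log2 fold changes (libraries D to F over A to C, horizontal axis) of the 46 SLC25 members in 10 groups by known or proposed substrate, 1 point a gene, filled by call. The calcium-regulated carriers reach from -2.88 to 2.37, the latter for SLC25A24, which was not called. The iron and glutathione carriers lie between -0.05 and 0.54.

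Values of 3 members, those without an adjusted p, could not be read. SLC25A2 and SLC25A32 were both listed at a log2 fold change of 0.89 with an adjusted p of 1, and 377 genes share this fold change to 3 decimals, of which 0 had an adjusted p in the sense used here. SLC25A46, an outer-membrane protein of mitochondrial shape, was listed at 1.79 with an adjusted p of 1, a fold change shared by 31 genes. Exons of other genes covered 80.8% of the exonic bases of SLC25A32, and 80.7% of its 150-base windows occur in a transcript of AC012213.5. No exon of another gene overlapped SLC25A46 or SLC25A2. Whether overlap bears on the value of SLC25A32 was not tested.

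Paralogues were then set side by side, with the identity of their coding sequences (GENCODE 29, stop codon left out) as a measure of likeness. SLC25A23 and SLC25A25 were identical at 71.2% of 1389 aligned bases and were called in opposite directions, with log2 fold changes of -2.88 and 1.44. The same held for SLC25A12 and SLC25A13 (72.1% identity; -0.34 and 0.29) and for SLC25A22 and SLC25A18 (69.5%; -0.51 and 1.00). With Holm adjustment in place of the authors' the calls of SLC25A12, SLC25A13, SLC25A18 and SLC25A22 ended, and a minimum of 1.5-fold also ended those of SLC25A12, SLC25A13 and SLC25A22. Of the 3 opposite pairs, SLC25A23 and SLC25A25 kept both calls under these settings. In the mitoferrin pair (70.1%) and the ADP/ATP exchangers SLC25A4 and SLC25A5 (77.2%) only 1 paralogue was called, and in the pairs SLC25A33 and SLC25A36 (65.7%) and SLC25A39 and SLC25A40 (61.2%) neither was. SLC25A51 and SLC25A52 had the highest identity of the pairs compared, 97.6%. Even so, only 3.64% of the 150-base windows of SLC25A51 were found in SLC25A52. SLC25A2 and SLC25A15 followed at 87.6%. In all, 41 of 46 members shared no 150-base window with a transcript of another gene. The difference between paralogues was not tested, since the authors' deposited table gives no standard errors.

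**Figure D4:**
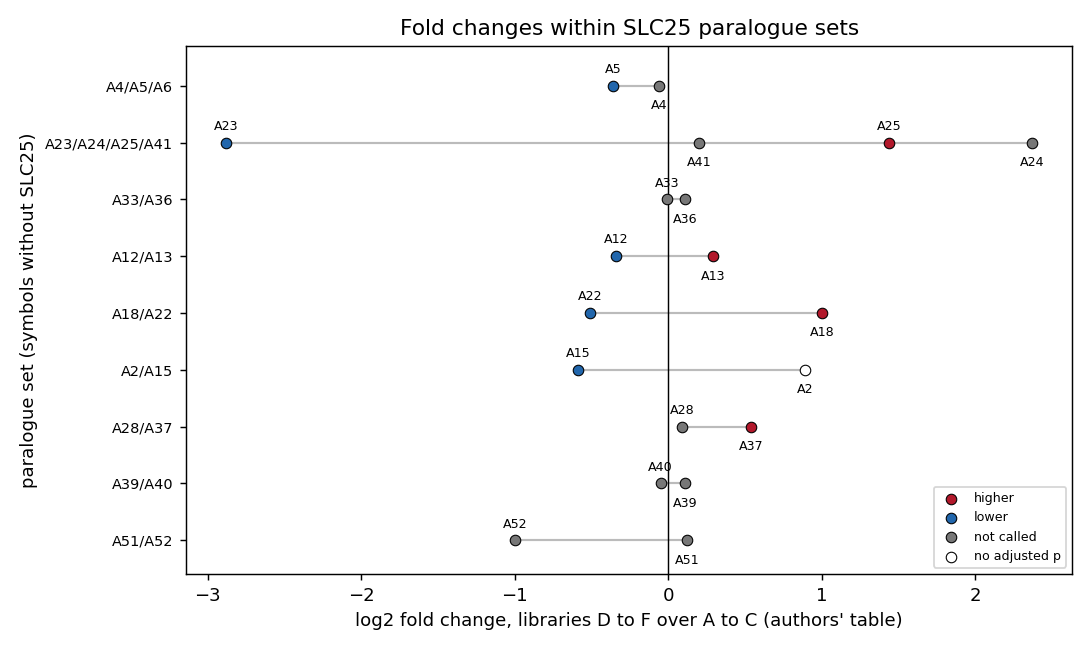
Log2 fold changes (libraries D to F over A to C, horizontal axis) within 9 sets of SLC25 paralogues, 1 point a gene, labelled without the prefix SLC25 and filled by call. The lines of SLC25A23 to SLC25A25, SLC25A12 to SLC25A13 and SLC25A22 to SLC25A18 cross 0 with a called gene on each side. SLC25A6 has no value.

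Relatives that carry other symbols were 1 higher and 1 lower among 5, 20% and 20%, beside 29.7% and 27.9% of all genes. This list and those below were chosen with earlier results of these data known, so their shares are description only. UCP3 was 2.07-fold higher (adjusted p = 1.25e-05 in the authors' deposited table) and UCP2 was 1.24-fold lower (adjusted p = 0.0373). UCP1 (2.79, adjusted p = 0.391) and the outer-membrane relatives MTCH1 (0.16, adjusted p = 0.117) and MTCH2 (2.78, adjusted p = 0.441) were not called. To 3 decimals, 10 genes share the fold change of UCP1, 10 that of MTCH1 and 9 that of MTCH2.

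The machinery that inserts carriers had 5 of 9 measured genes called higher, 1 lower and 3 not called. The shares were 55.6% higher and 11.1% lower, beside 29.7% and 27.9% of all genes. The small chaperones that escort carriers through the intermembrane space led, TIMM9 at 3.07-fold (adjusted p = 1.73e-21 in the authors' deposited table) and TIMM10 at 1.77-fold (adjusted p = 1.71e-08). The outer-membrane receptor for carriers TOMM70 (1.43-fold, adjusted p = 3.92e-07) and the pore TOMM40 (1.30-fold, adjusted p = 0.000699) were higher, and the receptor TOMM22 was 1.64-fold lower (adjusted p = 5.95e-09). TIMM22, the translocase pore itself, is not among the rows and was not analysed here.

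Other mitochondrial transporters were 3 higher and 7 lower of 15, 20% and 46.7%, beside 29.7% and 27.9% of all genes. The sideroflexins SFXN3 (3.56-fold, adjusted p = 5.29e-28 in the authors' deposited table), SFXN2 (1.84-fold, adjusted p = 4.02e-09) and SFXN1, a serine carrier (1.37-fold, adjusted p = 1.75e-05), were lower, as was the outer-membrane channel VDAC3 (1.82-fold, adjusted p = 2.67e-13). SFXN4 was 1.64-fold higher (adjusted p = 6.8e-07). The pore of the calcium uniporter, MCU, was 1.29-fold higher (adjusted p = 0.00848), ABCB10 was 1.17-fold higher (adjusted p = 0.0383), and the pyruvate carrier subunits MPC1 (-0.02) and MPC2 (0.17) were not called.

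Enzymes that make or use the carried substrates were 5 higher and 13 lower of 24, 20.8% and 54.2%, beside 29.7% and 27.9% of all genes. ACLY, which cleaves exported citrate, was 2.60-fold lower (adjusted p = 2.19e-46 in the authors' deposited table) and SHMT2 1.92-fold lower (adjusted p = 5.7e-29). Carnitine acetyltransferase CRAT was 2.54-fold lower (adjusted p = 2.08e-22). CPT1A, which makes the acylcarnitine that SLC25A20 carries, was 1.63-fold lower (adjusted p = 2.69e-11), and CPT2 was not called (-0.10, adjusted p = 0.453). ALAS1, which joins glycine to succinyl-CoA in the first step of heme synthesis, was 1.96-fold higher (adjusted p = 6.96e-23), and the last enzyme of that pathway, FECH, was at -0.59 on the log2 scale (adjusted p = 1.2e-08). In the malate-aspartate shuttle the cytosolic aminotransferase GOT1 was 1.55-fold higher (adjusted p = 1.03e-09), the mitochondrial GOT2 was 1.25-fold lower (adjusted p = 0.000794), MDH2 was 1.21-fold lower (adjusted p = 0.00833) and MDH1 was not called (-0.21, adjusted p = 0.106). NADK2 was 1.42-fold higher (adjusted p = 0.000413).

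**Figure D5:**
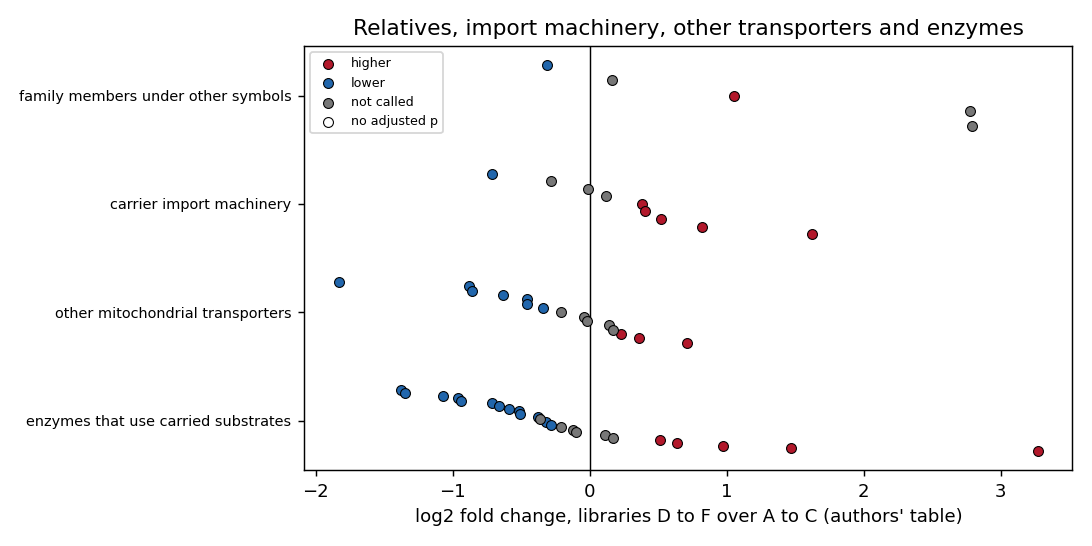
Log2 fold changes (libraries D to F over A to C, horizontal axis) of SLC25 relatives under other symbols, carrier import machinery, other mitochondrial transporters and enzymes of the carried substrates, 1 point a gene, filled by call. Import genes were called higher in 5 of 9 cases and enzymes lower in 13 of 24, where 29.7% of all genes were called higher and 27.9% lower. The lists were chosen with earlier results of these data known, so these shares are description only.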

How the data were processed

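RNA of 3 ISP-I and 3 DMSO samples of H1048 cells was sequenced as paired ends of 150 bases, and the tools named in the submitters' processing notes are STAR, HTSeq, Trimmomatic and DESeq2, with the build hg38. The annotation, versions, parameters and use of strand are not stated there. The authors deposited, per the file headers, the log2 fold change of each gene with its p-value, unadjusted and adjusted. Whether the log2 fold changes were shrunken is not given. The 36 per-library columns (18 in each of 2 tables) match no sample label and were not used, so the planned count test, depth per sample and errors between replicates are not given, and the authors' p-values were used instead. The second table, a subset of the first, was read for its headers and gene symbols only. It gave no fold change, p-value or call.

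For 977 genes the adjusted p is listed at 1, and these were treated as having none. The other 15976 differ from a Benjamini-Hochberg adjustment over themselves by at most 1.19e-15. Called genes have an adjusted p under 0.05. The adjustments were tested on simulated data. Gene models came from GENCODE 29, in which all 46 members matched, and coding sequences of the principal transcripts were aligned globally with Biopython 1.88. Windows of 150 bases were looked up exactly in all transcripts. Named genes are all members, those past 1.5-fold with the smallest p in each direction in more detail. Up to 4 called genes per direction of each partner list were also named. UCP1, MTCH1, MTCH2, MDH1, MDH2, GOT2, FECH, CPT2, MPC1 and MPC2 were named beyond this rule, after their values were seen. Members and lists were chosen with earlier results of these data known. Protein sequences were not used here, and some genes that the rule takes are counted but not reported by name. Alternatives were a stricter threshold, other adjustments, centring and a fold minimum. Python 3.11.15, pandas 2.3.3 and numpy 2.4.6 were used.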

Additional observations from a re-analysis of the deposited data

How the results depend on the processing

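With Holm adjustment, 4 members were called higher and 6 lower in place of 10 and 13, and 13 single calls ended, that of SLC25A47 (log2 fold change 3.66) among them. Requiring at least 1.5-fold ended 9 calls and left 5 higher and 9 lower, 14 of 43 members beside 6501 of 15976 genes. The shares of all genes called under Holm adjustment and under the stricter threshold are not given here. An adjusted p under 0.01 ended the calls of SLC25A18 and SLC25A21, and Benjamini-Hochberg adjustment over every row ended 0. Centring the fold changes on the median of all rows turned SLC25A43, which was not called, to -0.05, and left the direction of the other 42 members with an adjusted p as it was. The median log2 fold change of the members, 0.00, became -0.06 with centring and -0.05 over members with an adjusted p only. The counts of the partner lists did not change under the settings run on them, centring and adjustment over every row. Centring kept the authors' adjusted p, and the other setting only added 977 rows to 15976, so neither could move these counts much. DESeq2 and edgeR fits, a fit without a filter and fits without single replicates were not run, because the columns of values per library match no sample label. No paired analysis was possible because those columns carry no replicate number of a sample. No counts were used, so the depth behind any fold change is not known.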
